A study of Mus musculus with 6 samples.

Results

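The 10 genes described here are Txnip, Arrdc4, Arrdc3, Mlxip, Mlx, Slc2a1, Slc2a3, Hk1, Hk2 and Txn1. They cover the α-arrestin TXNIP and its relatives, and the glucose sensor with the known targets Txnip and Arrdc4. They also cover glucose uptake and phosphorylation, and the thioredoxin that TXNIP binds. They were found by symbol among the 17485 genes of the count tables; all 10 were present and all 10 were among the 12755 genes that passed the filter on low counts. The set was chosen on measured values of the same comparisons, so the values of the 10 genes are given as a description, with no p-value. Where such a gene is said below to pass a threshold or not, this describes the fit and is not a test of the gene. The cells were E14 mouse embryonic stem cells (mESCs), 1 established line of 129/Ola background, grown on gelatin in serum with leukaemia inhibitory factor (LIF). From 24 h after seeding they received cycloheximide, an inhibitor of translation elongation, for 3 h or 6 h, at 250 µg/mL in medium with 0.007% ethanol. The control cells received ethanol alone for 9 h, a longer exposure than either treated group, so drug and hours in ethanol cannot be told apart. Each group had 2 libraries of bulk polyadenylated RNA; the labels do not say that the 2 came from separate cultures, so the spread between them may be technical.

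TXNIP is an α-arrestin: it links membrane cargo such as glucose transporters to endocytosis, recruits NEDD4-type ubiquitin ligases, and binds reduced thioredoxin. Its gene and Arrdc4 are the best known targets of MondoA, the product of Mlxip, which pairs with MLX, senses glucose 6-phosphate and binds a carbohydrate response element, 2 E-box-like core sites set 5 bases apart. Txnip mRNA is short-lived, and the TXNIP protein is degraded rapidly by the proteasome; by lowering glucose uptake it closes a feedback loop on the sensor.

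Promoter sequences are shown first for Txnip and Arrdc4, the 2 classical targets of the sensor, with Arrdc3, an α-arrestin that was higher without such a site in the window, and Mlx, a sensor subunit that has 1, for contrast. Each is 300 bases long, 250 before and 50 after the start, read 5′ to 3′ on the gene's strand from RefSeq on build GRCm38.p6; capitals mark every match to the core site CACGNG on either strand, where N is any base. The windows are chr3:96557707-96558006 on the plus strand for Txnip, chr7:68749189-68749488 on the minus strand for Arrdc4, chr13:80883134-80883433 on the plus strand for the first of 3 Arrdc3 starts, and chr11:101087040-101087339 on the plus strand for Mlx.
Txnip: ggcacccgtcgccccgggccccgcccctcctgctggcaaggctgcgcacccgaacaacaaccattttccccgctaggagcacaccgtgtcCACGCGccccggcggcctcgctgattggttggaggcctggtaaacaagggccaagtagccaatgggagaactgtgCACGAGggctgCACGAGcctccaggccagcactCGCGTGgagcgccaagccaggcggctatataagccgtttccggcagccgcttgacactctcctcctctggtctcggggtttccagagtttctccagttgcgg
Arrdc4: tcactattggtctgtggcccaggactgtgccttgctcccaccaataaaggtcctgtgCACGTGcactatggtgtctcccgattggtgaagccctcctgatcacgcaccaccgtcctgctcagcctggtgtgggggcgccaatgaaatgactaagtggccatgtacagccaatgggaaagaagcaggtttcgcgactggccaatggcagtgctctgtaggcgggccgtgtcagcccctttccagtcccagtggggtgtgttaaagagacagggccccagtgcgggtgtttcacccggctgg
Arrdc3: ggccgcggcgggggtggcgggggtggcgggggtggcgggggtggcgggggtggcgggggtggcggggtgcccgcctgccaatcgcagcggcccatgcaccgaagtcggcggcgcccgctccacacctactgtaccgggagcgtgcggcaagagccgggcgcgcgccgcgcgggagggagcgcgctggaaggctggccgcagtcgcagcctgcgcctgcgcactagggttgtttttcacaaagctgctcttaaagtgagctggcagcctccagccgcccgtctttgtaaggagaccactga
Mlx: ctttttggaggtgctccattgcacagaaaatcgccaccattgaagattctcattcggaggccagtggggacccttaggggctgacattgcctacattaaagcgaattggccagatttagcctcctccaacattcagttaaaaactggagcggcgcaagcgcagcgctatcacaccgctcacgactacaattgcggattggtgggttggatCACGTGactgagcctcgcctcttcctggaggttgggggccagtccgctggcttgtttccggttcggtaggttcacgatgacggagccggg

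The Txnip window held 4 matches to CACGNG, of which the middle 2 read CACGAG and stood 5 bases apart, from base -85 to base -69 before the start (chr3:96557872-96557888). Such a pair, in any orientation of the core sites, was present in 27 of the 32851 promoters in the RefSeq table, or 0.08219%. The Arrdc4 window held 1 match, the palindrome CACGTG from base -193 to base -188, and the Mlx window also held 1 CACGTG, from base -40 to base -35. CACGTG was in 7.15% of all promoters and CACGNG, which includes it, in 27.48%. Of the other genes, none of the 3 Arrdc3 starts and none of the windows of Mlxip, Slc2a1, Hk2 or Txn1 held CACGNG, while 1 of 2 Hk1 starts held 2 overlapping matches. CCAAT, the box bound by NF-Y, was present 2 times in the Txnip window, 6 times in that of Arrdc4 and 2 times in that of Mlx, and was found in 37.41% of all promoters. Promoters were matched for 9 of the 10 genes, 12 windows in all; Slc2a3 was not matched. These matches describe letters in a window and not bound sites.

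**Figure D1:**
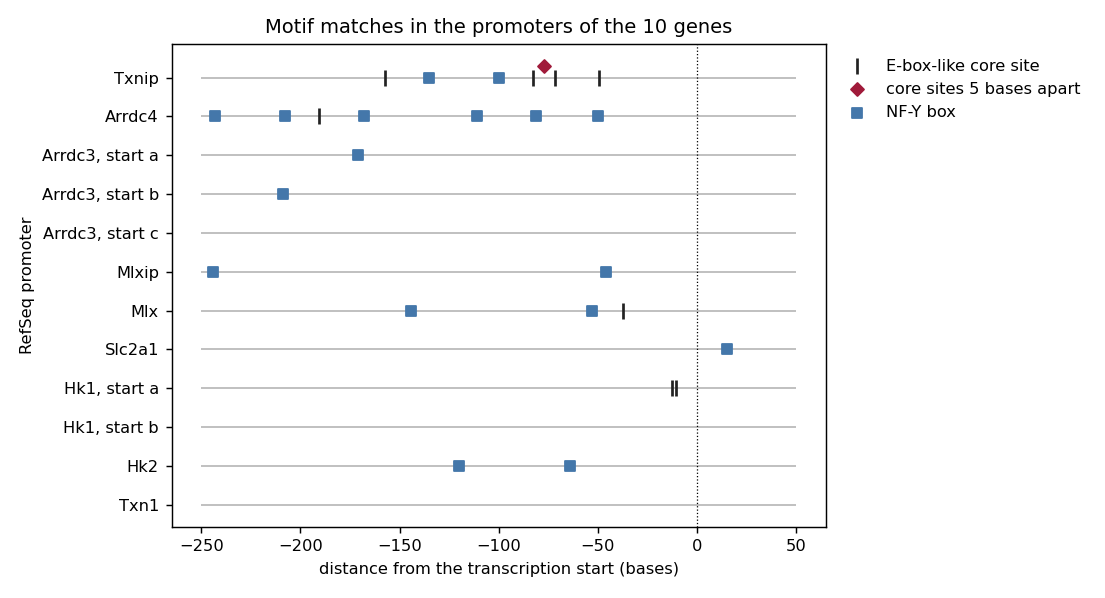
Positions of motif matches in the 12 RefSeq promoters matched to the genes, in bases from the transcription start (x axis), 1 row per start. Ticks are E-box-like core sites, the diamond the pair of core sites 5 bases apart, and squares NF-Y boxes. The pair appears in the Txnip row alone, and the Arrdc4 row has 6 squares.

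Library totals ran from 9385447 to 27351079 counts, and the 2 libraries at 6 h were the deepest. Levels are CPM, counts divided by a library size that was itself scaled by the trimmed mean of M values (TMM), and a count of 3, taken as the floor, equals 0.099 to 0.367 CPM; it covers counting error only. The mitochondrial share of counts was 24.7% and 24.9% in control, 19.6% and 18.9% after 3 h and 17.4% and 16.6% after 6 h. All 10 mESC markers listed were present; their summed level was 6946 to 7122 CPM in control, 7966 to 8221 at 3 h and 5542 to 5715 at 6 h. Without Sox2, at 2282 and 2602 CPM in control and 3849 and 3958 at 3 h, the other 9 summed to 4664 and 4520 in control, 4117 and 4262 after 3 h and 3377 and 3164 after 6 h. These 9 did not move together. Nanog was low throughout, from 3.86 to 10 CPM. Tfcp2l1 was at 161.6 and 170.5 CPM in control, 80.6 and 69.1 after 3 h and 55.1 and 61.4 after 6 h. Zfp42 was lowest after 6 h, with 351.5 and 358.8 CPM against 727.3 and 675.8 for the controls. Esrrb overlapped its controls after 6 h. Klf4 was at 238.2 and 235.7 CPM in control, 346.8 and 380.3 after 3 h and 216.4 and 245.2 after 6 h. Primitive endoderm markers, all 7 present, summed to 41.4 to 54.4, 51.1 to 51.4 and 17.8 to 20.7 CPM in the same order. Sox7 was at 48.5 and 33.6 CPM in control, 36 and 32.1 after 3 h and 5.05 and 5.63 after 6 h. The other 6 summed to 5.85 and 7.82 in control, 15.4 and 19.1 after 3 h and 12.7 and 15 after 6 h. Fibroblast or feeder markers, 5 of 7 present with Dcn at or under the floor, summed to 3.07 to 10.1 CPM over all libraries. Trophoblast markers, 4 of 5 present with Cdx2 at or under the floor, ran from 54.4 CPM at the highest in control to 21.5 CPM at the lowest at 6 h. The part of depth, mitochondrial share and marker levels in the results below was not tested. In bulk RNA, fewer cells of a type and less RNA per cell cannot be told apart.

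Across the 10 genes the α-arrestins were far higher after cycloheximide, the sensor subunits were within their error of control, and 1 transporter, 1 hexokinase and thioredoxin were lower by 6 h. At 3 h, 4 of the 10 passed an adjusted p of 0.05 in edgeR's quasi-likelihood fit over all genes, 3 higher and 1 lower. Over all tested genes 4.9% passed at 3 h, 3.6% higher and 1.3% lower. At 6 h, 6 of the 10 passed, 3 higher and 3 lower, where 29% of all genes did, 14.8% higher and 14.3% lower. Between 3 h and 6 h, 2 of the 10 passed, 1 higher and 1 lower, against 1.64% of all genes, 0.455% higher and 1.18% lower. Nothing is read from these counts, since the genes were chosen on these comparisons. The median log2 fold change of the 10 was 0.01 at 3 h, -0.10 at 6 h and -0.15 from 3 h to 6 h, beside 0.02, 0.04 and 0.01 over all tested genes. The 3 h and 6 h comparisons share their 2 control libraries.

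**Figure D2:**
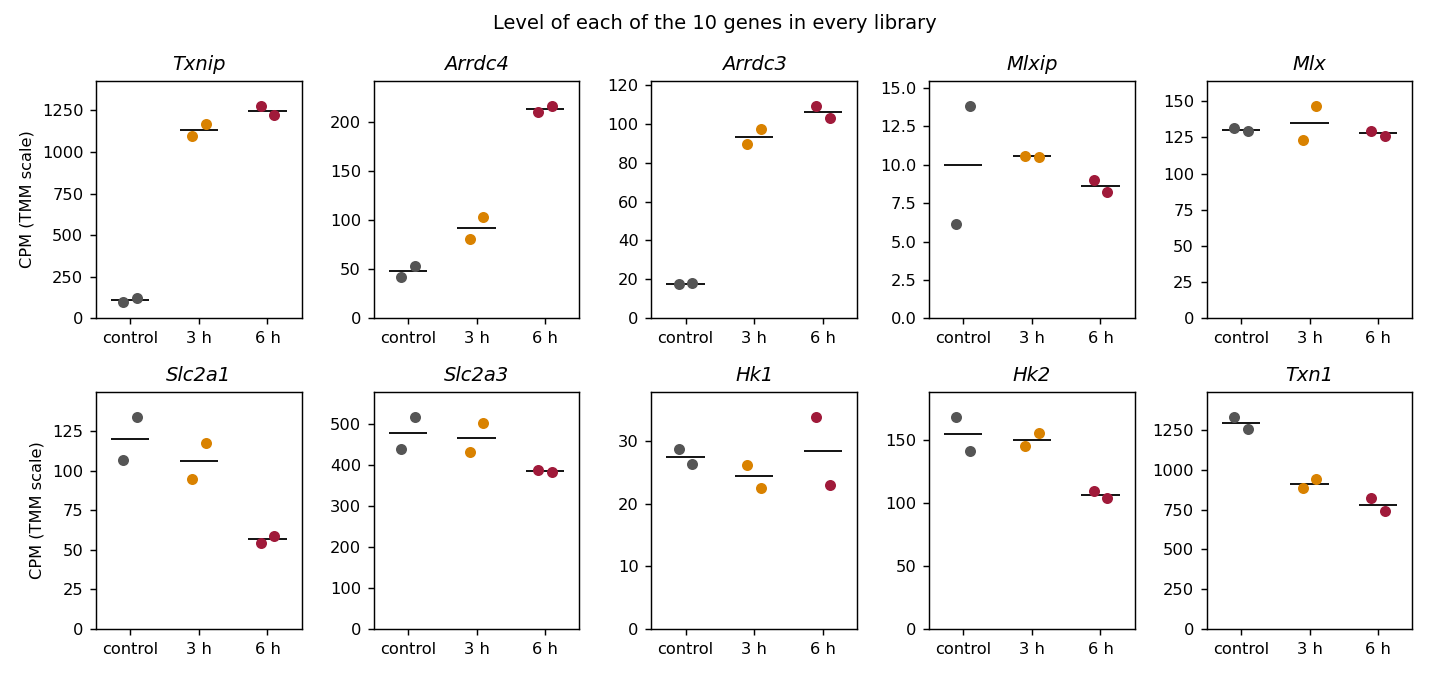
Level of each of the 10 genes in every library, in TMM-scaled CPM on a linear axis from 0 (y axis), by group (x axis). Each point is 1 of 2 libraries and each bar their mean. The 4 treated libraries of Txnip lie between 1098 and 1274 CPM and its controls at 97.9 and 119, while Arrdc4 has a further step between 3 h and 6 h.

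Txnip (chr3:96557957-96561883, plus strand, GENCODE M21 on GRCm38) was at 97.9 and 119 CPM in the control libraries, 1098 and 1167 after 3 h and 1274 and 1222 after 6 h. Every treated library was above both controls, and both 6 h libraries were above both at 3 h by a small margin. The fitted difference from control was 10.5-fold at 3 h, a log2 fold change of 3.39 ± 0.11 (SE, 2 libraries against 2), and 11.5-fold at 6 h, 3.53 ± 0.11. From 3 h to 6 h the log2 difference was 0.14 ± 0.11, so nearly all of the change seen was present at 3 h. Txnip had the 137th highest log2 fold change of the 12755 genes at 3 h and the 207th highest at 6 h. By raw count it was gene number 1748 and 1438 in the control libraries, 99 and 93 after 3 h and 72 and 75 after 6 h. It took up 0.00856% and 0.0104% of all counts in control, 0.111% and 0.12% after 3 h and 0.141% and 0.138% after 6 h. An antisense gene, Gm15441, overlaps Txnip; its counts came to 0.11% to 0.757% of those of Txnip in a library, and whether counting used strand is not given in the sources used here.

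Arrdc4 (chr7:68736995-68749241, minus strand), an α-arrestin induced by glucose together with Txnip, was highest at 6 h, with a further step between the treated groups. Its level was 42.5 and 53.4 CPM in control, 80.9 and 103 after 3 h and 210 and 216 after 6 h, and no 2 groups overlapped. The difference from control was 1.93-fold at 3 h (log2 0.95 ± 0.16) and 4.46-fold at 6 h (log2 2.16 ± 0.16), with 2.31-fold between the treated groups (log2 1.21 ± 0.16). The number of Txnip counts for each Arrdc4 count, a ratio in which transcript length and library size cancel between libraries, was 2.31 and 2.23 in control, 13.6 and 11.3 after 3 h and 6.07 and 5.66 after 6 h. The ratio was thus highest at 3 h and intermediate at 6 h, with no overlap between groups. At 3 h the adjusted p of Arrdc4 no longer passed in a fit of those 2 groups alone or without 3 h replicate 2, and from 3 h to 6 h it no longer passed without any 1 of the 4 treated libraries; the log2 difference then ran from 1.05 to 1.40.

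Arrdc3 (chr13:80883384-80896042, plus strand) encodes an α-arrestin known for bringing the β2-adrenergic receptor to NEDD4 and is not a textbook target of MondoA. It was at 17.5 and 18.2 CPM in control, 89.5 and 97.3 after 3 h and 109 and 103 after 6 h. As for Txnip, most of the difference was present at 3 h: it was 5.24-fold higher at 3 h (log2 2.39 ± 0.13), 5.94-fold at 6 h (log2 2.57 ± 0.13), and 0.18 ± 0.12 on the log2 scale between the treated groups. In the 15 alternative analyses the log2 value of Txnip lay between 3.25 and 3.61 at 3 h and between 3.39 and 3.88 at 6 h. That of Arrdc3 lay between 2.33 and 2.62 at 3 h and between 2.53 and 2.93 at 6 h. With every library thinned to the smallest total, Txnip was 3.36 and 3.51. These refits reuse the same libraries, and the genes were chosen on these comparisons, so the ranges are a description.

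Of the 2 other α-arrestins tested, 1 rose and 0 fell at 6 h, where 14.8% of all genes were called higher and 14.3% lower. At 3 h 0 passed (1 at an unadjusted p under 0.05), where 4.9% of all genes did. From 3 h to 6 h 0 passed (0 unadjusted), against 1.64% of all genes. With limma-voom and DESeq2 the counts were the same as with edgeR. Arrdc2 was at 2.15 and 0.733 CPM in control (29 and 6 counts), 3.75 and 4.91 after 3 h and 5.54 and 5.63 after 6 h, and it rose by 6 h, log2 fold change 1.87 ± 0.46 (adjusted p = 0.0169, edgeR). Arrdc2 no longer passed when either 6 h library was left out (adjusted p up to 0.0801), and its log2 value was 2.92 without control replicate 1 and 1.38 without control replicate 2. Arrdc1, which buds vesicles from the plasma membrane, was at 1.63 and 4.52 CPM in control and 2.57 and 2.41 at 6 h, log2 -0.25 ± 0.51 (adjusted p = 0.744, edgeR; named after its values were seen), and Arrdc5 did not pass the filter.

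**Figure D3:**
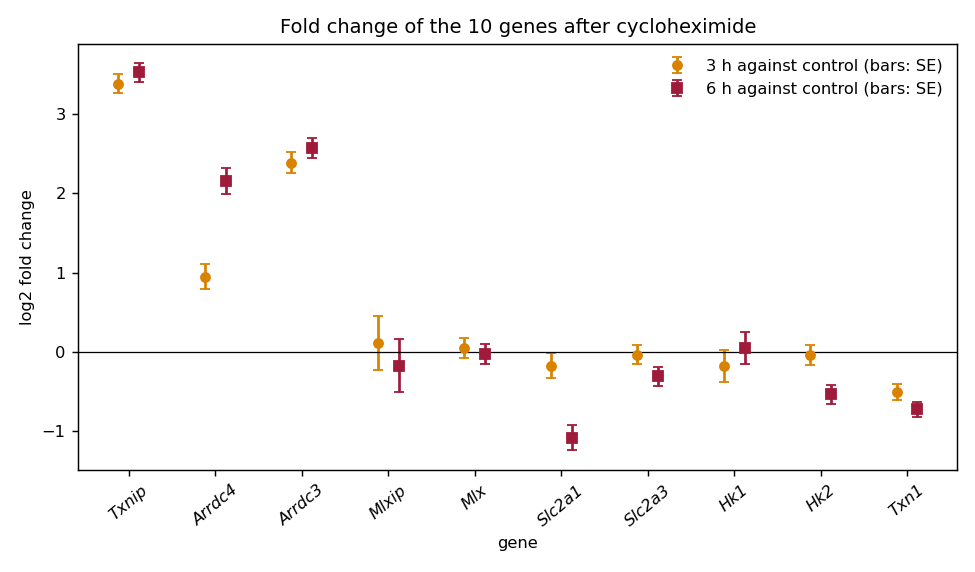
Log2 fold change of each of the 10 genes against control (y axis) at 3 h (circles) and 6 h (squares); bars are the standard error of the fit. Txnip and Arrdc3 have nearly the same value at both times, Arrdc4 goes from 0.95 to 2.16, and Slc2a1, Hk2 and Txn1 lie below 0 at 6 h.

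Of the 9 NEDD4-type ubiquitin ligases tested, the family that α-arrestins recruit, 1 rose and 1 fell at 6 h, where 29% of all genes were called; with library size as the only scaling 3 rose and 0 fell. At 3 h 0 passed in edgeR's fit and 1 had an unadjusted p under 0.05; from 3 h to 6 h these counts were 0 and 2. With limma-voom and with DESeq2 0 passed in both. The shares of all genes called by edgeR were 4.9% at 3 h and 1.64% from 3 h to 6 h. Wwp1 was at 28.8 and 27.1 CPM in control, 34.6 and 32.5 after 3 h and 43.2 and 44.1 after 6 h (log2 0.64 ± 0.14, adjusted p = 0.0101, edgeR). Nedd4, the namesake of the family, was at 3830 and 4050 CPM in control, 3137 and 3312 after 3 h and 2588 and 3019 after 6 h (log2 -0.49 ± 0.10, adjusted p = 0.00882, edgeR). Wwp1 lost its call without either 6 h library, and Nedd4 without 6 h replicate 1 or with library size as the only scaling. Itch, the ligase that degrades TXNIP in other cells, was at 24.9 and 28.3 CPM in control and 33.5 and 36.9 at 6 h without passing (log2 0.41 ± 0.17, adjusted p = 0.108, edgeR; named after its values were seen).

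For the 2 subunits of the glucose sensor no difference was detectable with 2 libraries per group. Mlxip (chr5:123394798-123457932, plus strand), which encodes MondoA, was at 6.15 and 13.8 CPM in the control libraries, 10.6 and 10.5 after 3 h and 9.01 and 8.24 after 6 h. All treated libraries lay between the 2 controls, and the log2 difference was 0.11 ± 0.34 at 3 h and -0.18 ± 0.34 at 6 h. With errors of this size, a 1.5-fold difference could not be told from none. Mlx (chr11:101087277-101092207, plus strand), the partner that MondoA needs to bind DNA, was at 131 and 129 CPM in control, 123 and 146 after 3 h and 130 and 126 after 6 h; the 3 groups overlapped, with log2 differences of 0.05 ± 0.12 and -0.03 ± 0.12. Psmc3ip lies opposite Mlx and overlaps it, with 15.1% to 19.1% as many counts.

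Among the 4 other MLX partners tested 1 rose and 1 fell at 6 h, where 29% of all genes were called; with library size as the only scaling 2 rose and 0 fell. At 3 h 0 passed in edgeR's fit, with 1 at an unadjusted p under 0.05 and 0 by limma-voom or DESeq2. From 3 h to 6 h 0 passed, with 1 unadjusted and 1 by each of the other tools. Of all genes, edgeR called 4.9% at 3 h and 1.64% from 3 h to 6 h. Mxd1, a repressor that pairs with MAX and MLX, was at 7.19 and 1.96 CPM in control (97 and 16 counts), 11.2 and 10.3 after 3 h and 18.3 and 16.9 after 6 h (log2 1.87 ± 0.42, adjusted p = 0.0127, edgeR). Mnt, a second such repressor, was at 17.9 and 17.8 CPM in control, 18.5 and 16.9 after 3 h and 10.2 and 9.7 after 6 h (log2 -0.84 ± 0.17, adjusted p = 0.00874, edgeR). The call of Mxd1 was lost without either 6 h library, its log2 value was 3.17 without control replicate 1 and 1.30 without control replicate 2, and that of Mnt without 6 h replicate 2 or with library size alone. Mlxipl, which encodes ChREBP, the sensor of liver and fat, was at 0.296 and 0.367 CPM in control (4 and 3 counts), at or near the floor; it was 1.78 and 0.805 CPM at 6 h and did not pass (log2 1.97 ± 0.81, adjusted p = 0.092, edgeR; named after its values were seen).

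Other genes reported as glucose-responsive targets of MondoA or ChREBP moved in both directions. Of all genes, 3.6% were called higher and 1.3% lower at 3 h, and 14.8% higher and 14.3% lower at 6 h. From 3 h to 6 h these shares were 0.455% and 1.18%. Of the 12 tested besides Txnip, Arrdc4 and Hk2, 2 rose and 0 fell at 3 h, 2 rose and 3 fell at 6 h, and 1 rose and 0 fell from 3 h to 6 h; their median log2 fold change was -0.19, 0.01 and -0.03. Those lower at an unadjusted p under 0.05 were 3 at 3 h and 1 from 3 h to 6 h; 1 and 1 passed with DESeq2, 0 and 1 with limma-voom. At 6 h 4 rose and 1 fell with library size as the only scaling, and 1 fell without either 6 h library. Klf10, a Krüppel-like factor also induced by TGF-β, was at 105 and 97.4 CPM in control, 347 and 336 after 3 h and 627 and 631 after 6 h. It rose by a log2 fold change of 1.75 ± 0.10 at 3 h (adjusted p = 8.85e-05, edgeR) and 2.63 ± 0.10 at 6 h (adjusted p = 7.58e-06, edgeR). Pfkfb3, whose enzyme makes the sugar bisphosphate that activates phosphofructokinase and which is also in the glycolysis list, was at 1.63 and 2.32 CPM in control, 5.68 and 6.7 after 3 h and 7.82 and 12 after 6 h. Its log2 fold change was 1.68 ± 0.36 at 3 h (adjusted p = 0.0359, edgeR) and 2.35 ± 0.35 at 6 h (adjusted p = 0.00265, edgeR); the 3 h call failed in 7 of 15 alternatives, with an adjusted p up to 0.167.

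Fasn, Scd1 and Scd2 were the 3 that fell at 6 h. Fasn, fatty acid synthase, was at 45.7 and 45.6 CPM in control, 31.8 and 35.1 after 3 h and 20.3 and 21.2 after 6 h (log2 -1.14 ± 0.14, adjusted p = 0.00123, edgeR), a graded course with no overlap between groups. Scd1 and Scd2, stearoyl-CoA desaturases named here after their values were seen, had log2 fold changes of -0.63 ± 0.15 and -0.48 ± 0.15 at 6 h (adjusted p = 0.0172 and 0.0476, edgeR). The other 7 tested genes of the list, among them Elovl6, Acaca and Acly, which also serve fatty acid synthesis, did not pass at 6 h; Elovl6 had a log2 value of 0.36 ± 0.12 and Acaca and Acly -0.53 ± 0.22 and -0.34 ± 0.12 (named after their values were seen).

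Of the transporters, Slc2a1 was clearly lower at 6 h while Slc2a3 differed from control by less. Slc2a1 (chr4:119108711-119137983, plus strand) encodes GLUT1, the transporter that TXNIP is known to remove from the surface. It was at 107 and 134 CPM in control, 94.6 and 118 after 3 h and 54.4 and 58.8 after 6 h. The 3 h and control libraries overlapped (log2 -0.18 ± 0.16), while both 6 h libraries were below all others: 2.12-fold lower than control (log2 -1.09 ± 0.16) and 1.88-fold lower than at 3 h (log2 -0.91 ± 0.16). The difference from 3 h no longer passed without any 1 of the 4 treated libraries or with library size as the only scaling, where it ran from -1.05 to -0.74. That from control ran from -1.25 to -0.73 over the 15 alternatives.

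Slc2a3 (chr6:122727809-122801640, minus strand) encodes GLUT3, a high-affinity transporter. Its level was 439 and 517 CPM in control, 431 and 502 after 3 h and 388 and 383 after 6 h, with a log2 difference from control of -0.03 ± 0.12 and -0.31 ± 0.12. Both 6 h libraries lay below all 4 others by a small margin, but the difference did not pass except without control replicate 1, and its sign turned with library size as the only scaling (0.05). Counts of Slc2a3 for each count of Slc2a1 were 4.11 and 3.86 in control, 4.55 and 4.26 after 3 h and 7.14 and 6.52 after 6 h. This ratio does not depend on library size, and the 6 h libraries were above the other 4. Of the 3 other transporters tested, 0 passed in any comparison in edgeR's fit. Over all genes 4.9% passed at 3 h, 29% at 6 h and 1.64% from 3 h to 6 h, so little can be read from 3 genes. At an unadjusted p under 0.05 there were 0 at 3 h, 1 at 6 h and 1 from 3 h to 6 h; DESeq2 called 1 at 6 h and limma-voom 0. Slc2a4, the insulin-responsive GLUT4, was at 1.19 and 0.122 CPM in control (16 counts and 1 count) and 2.67 and 3.18 at 6 h, and did not pass (adjusted p = 0.067, edgeR; named after its values were seen).

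The hexokinases phosphorylate glucose to the glucose 6-phosphate that the sensor reads. Hk2 (chr6:82725025-82774454, minus strand), the inducible form and itself a reported MondoA target, was at 169 and 141 CPM in control, 146 and 156 after 3 h and 110 and 104 after 6 h. The 3 h libraries lay between the controls (log2 -0.04 ± 0.13) and those at 6 h were below all others, by 1.45-fold from control (log2 -0.54 ± 0.12) and by a log2 value of -0.50 ± 0.12 from 3 h. The difference from 3 h did not pass in edgeR's fit but did in 6 of 15 alternatives, limma-voom and DESeq2 among them. That from control did not pass without control replicate 1 or either 6 h library, or with library size as the only scaling, where the log2 value was -0.18. Hk1 (chr10:62268855-62379908, minus strand), the constitutive form, was at 28.7 and 26.4 CPM in control, 26.2 and 22.5 after 3 h and 33.8 and 23 after 6 h, and the 6 h libraries lay on either side of both controls. Its log2 difference was -0.18 ± 0.21 at 3 h and 0.04 ± 0.20 at 6 h. Counts of Hk2 for each count of Hk1 were 5.88 and 5.36 in control, 5.55 and 6.92 after 3 h and 3.24 and 4.52 after 6 h. Of the other hexokinases Hk3 and Hkdc1 did not pass the filter. The 1 tested, the ADP-dependent Adpgk, was at 22.4 and 26 CPM in control, 41.5 and 37.6 after 3 h and 35.3 and 46.5 after 6 h; it rose at 6 h (log2 0.76 ± 0.18, adjusted p = 0.0148, edgeR) but did not pass without control replicate 1 or 6 h replicate 2. At 3 h it did not pass in edgeR's fit (unadjusted count 1) but did with DESeq2.

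Of 23 tested genes of glycolysis after hexokinase, 1 rose and 0 fell at 3 h, 2 rose and 10 fell at 6 h, and 0 passed from 3 h to 6 h (9 at an unadjusted p under 0.05, 3 with DESeq2 and 1 with limma-voom), with median log2 fold changes of -0.20, -0.42 and -0.16. Over all genes 14.8% were called higher and 14.3% lower at 6 h. These shares were 3.6% and 1.3% at 3 h, and 0.455% and 1.18% from 3 h to 6 h. Ldha, lactate dehydrogenase A, was at 731 and 762 CPM in control, 556 and 632 after 3 h and 410 and 472 after 6 h (log2 -0.76 ± 0.11, adjusted p = 0.00284, edgeR). Slc16a3, which encodes the lactate exporter MCT4, was at 6.15 and 6.96 CPM in control, 6.59 and 8.32 after 3 h and 3.7 and 3.07 after 6 h (log2 -0.95 ± 0.28, adjusted p = 0.035, edgeR); its call failed in 8 of 15 alternatives, with an adjusted p up to 0.185. Pfkfb3 and Pfkfb2, the latter named after its values were seen, were the 2 that rose. Lower at 3 h at an unadjusted p under 0.05 were 6, of which DESeq2 called 2 and limma-voom 0. With library size as the only scaling 5 rose and 3 fell at 6 h; 6 fell without 6 h replicate 1 and 3 without 6 h replicate 2. Gapdh, Ldha, Pgk1, Tpi1, Eno1 and Prdx1 are known to have processed copies in the mouse genome. Txn1, described below, has a pseudogene, Txn-ps1, that was not among the genes counted. How reads that match several copies were assigned is not given in the sources used here, so the levels of these genes are uncertain. Eno1 was at only 0.396 to 2.03 CPM over all libraries and is among the 23 tested genes, and the cause of this low level was not tested.

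The pentose phosphate pathway branches off at glucose 6-phosphate and makes NADPH. Of its 7 genes 0 passed at 3 h, 0 rose and 4 fell at 6 h, and 0 passed between the treated groups. Over all genes 4.9% passed at 3 h and 1.64% between the treated groups, while 14.8% were called higher and 14.3% lower at 6 h. At an unadjusted p under 0.05 there were 1 at 3 h, 1 higher at 6 h and 3 between the treated groups; DESeq2 called 1 lower at 3 h and 1 lower between the treated groups, and limma-voom 0 in both. G6pdx, the first enzyme, was at 116 and 110 CPM in control, 90.1 and 98.3 after 3 h and 70.3 and 66.8 after 6 h (log2 -0.72 ± 0.12, adjusted p = 0.00396, edgeR). Pgd, the third enzyme, was at 92.9 and 75.5 CPM in control, 73.1 and 59.5 after 3 h and 55.3 and 44.5 after 6 h (log2 -0.76 ± 0.17, adjusted p = 0.0139, edgeR). The other two that fell were Pgls and Taldo1, named after their values were seen. The median of the 7 at 6 h was -0.46. With library size as the only scaling 1 fell and 1 rose, and without 6 h replicate 2 only 1 fell.

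**Figure D4:**
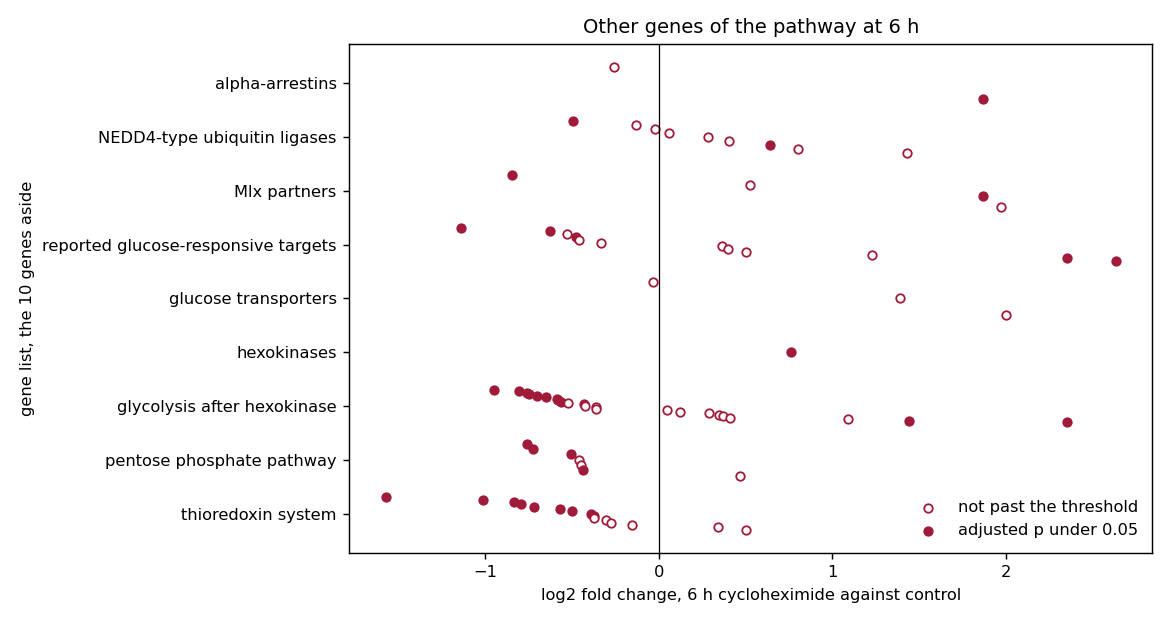
Log2 fold change at 6 h against control (x axis) of each tested gene in the 9 lists (y axis), the 10 genes left out; each point is 1 gene, filled where the adjusted p was under 0.05. Filled points of the thioredoxin system and the pentose phosphate pathway lie below 0 in all cases, and glycolysis has 10 below and 2 above.

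Thioredoxin is the protein that TXNIP binds and inhibits. Txn1 (chr4:57943373-57956411, minus strand) was at 1333 and 1258 CPM in control, 884 and 942 after 3 h and 824 and 740 after 6 h. All treated libraries were below both controls, and both at 6 h were below both at 3 h. It was 1.42-fold lower than control at 3 h (log2 -0.51 ± 0.10) and 1.66-fold lower at 6 h (log2 -0.73 ± 0.10), opposite in sign to that of Txnip. At 3 h it did not pass without either 3 h library, in a fit of those 2 groups alone, or with library size as the only scaling, where it was -0.28.

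The thioredoxin system holds the reductases and peroxiredoxins that work with thioredoxin. Of 15 tested besides Txn1, 0 rose and 2 fell at 3 h, 0 rose and 9 fell at 6 h, and 0 rose and 1 fell from 3 h to 6 h, with medians of -0.34, -0.39 and -0.15 on the log2 scale; over all genes 1.3%, 14.3% and 1.18% were called lower. None was higher at an unadjusted p under 0.05 in any comparison, nor called higher by limma-voom or DESeq2. Srxn1, sulfiredoxin, which repairs over-oxidised peroxiredoxins, was at 33.6 and 39.2 CPM in control, 24.7 and 24.5 after 3 h and 12.3 and 12.1 after 6 h. It fell by 1.57 ± 0.15 on the log2 scale at 6 h (adjusted p = 0.000485, edgeR). The 2 that fell at 3 h were the peroxiredoxins Prdx1, at 2094 and 2002 CPM in control and 1509 and 1494 at 3 h (log2 -0.45 ± 0.09, adjusted p = 0.0346, edgeR), and Prdx5, at 63 and 82.5 CPM and 42.4 and 42.8 (log2 -0.77 ± 0.16, adjusted p = 0.0376, edgeR). Txnrd1, the cytosolic reductase that recharges thioredoxin, was 172 and 191 CPM in control and 84.9 and 95 at 6 h (log2 -1.01 ± 0.14, adjusted p = 0.00228, edgeR); these 3 were named after their values were seen. With library size as the only scaling 3 of the 15 fell at 6 h; leaving out 1 library gave 6 without control replicate 2 or 3 h replicate 1, 5 without 6 h replicate 1 and 3 without 6 h replicate 2. The 2 calls at 3 h became 1 without control replicate 2 and 0 without any 1 of the treated libraries, with library size as the only scaling, with a replicate block or in a fit of the 2 groups alone.

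The genes whose course over the 6 libraries was most like that of Txnip were found by the root mean square (RMS) difference of log2 CPM, each centred on its control mean, among 7831 tested genes that reached 10 CPM in a group. This is a description, since Txnip was chosen for this pattern. Nearest was Hist1h1c, a linker histone gene, at 3.56 and 2.32 CPM in control, 29.5 and 29.6 after 3 h and 31 and 36.8 after 6 h, with an RMS difference of 0.27. Dusp8 followed at 0.55, Jun and Rasl11b at 0.66 each, and Lpar6 at 0.67. Jun was at 25.9 CPM in both controls, 214 and 293 after 3 h and 139 and 141 after 6 h, so even among these the later course differed from that of Txnip.

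Arrdc4 had closer neighbours. Nr2c1, which encodes an orphan nuclear receptor, differed by an RMS of 0.17, Mrc1, the mannose receptor gene, by 0.19, Gpcpd1 and Uimc1 by 0.21 each, and Zfp105 by 0.24. Gpcpd1 was at 16.7 and 17.2 CPM in control, 34.4 and 34.9 after 3 h and 62.3 and 63.3 after 6 h, a step at each time as for Arrdc4. No gene was in both sets of neighbours, but the courses of Txnip and Arrdc4 differ too much for such close sets to share a gene.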

How the data were processed

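RNA abundance was measured in 6 libraries, 2 per group, with groups and replicate numbers from the sample titles. The authors deposited 1 table of whole-number gene counts for each library, with build mm10 per the submitters' processing notes. The aligner, counting program, strandedness and the use of molecular identifiers are not given in the sources used here. By its title the series is bulk, but its design text speaks of single cells; with 1 value per gene in each table, every table was read as 1 bulk library.

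The 10 genes, the 9 gene lists and the promoter motifs were chosen with earlier results of these data known. Genes were kept by edgeR's filterByExpr (minimum count 10, minimum total 15), which left 12755 of 17485. Counts were scaled by TMM (M trim 30% and A trim 5% per end) and fitted by edgeR 4.0.16 in R 4.3.3 (glmQLFit, glmQLFTest) with a mean per group over all 6 libraries, no replicate block and 3 residual degrees of freedom. Two-sided p-values were adjusted by Benjamini-Hochberg over all 12755 genes within each comparison, and genes under 0.05 were called; the script was tested on simulated data, where the share of false calls came out above that nominal level. The standard error comes from the quasi-likelihood fit. With 2 libraries per group precision rests on the spread shared over groups and genes.

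Of each list, genes named by rule are the called gene with the smallest p and the one with the largest change at 6 h in each direction; other names are marked as chosen after their values were seen. Replicates were compared by chi-square over genes (18.7 to 27.7 per degree of freedom), so no 2 libraries were alike within counting noise. Gene positions are from GENCODE M21 and promoters from RefSeq, both on GRCm38, the same assembly as mm10. The 15 alternatives were limma-voom (limma 3.58.1), DESeq2 1.42.0, other scalings, no filter, a replicate block, fits of the 2 groups alone, removal of mitochondrial genes, thinning to 9385447 counts and leaving out each library.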

Additional observations from a re-analysis of the deposited data

Results flagged for a closer look

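Among the named genes of the lists, a pair differed between the 3 h and 6 h treatments by edgeR's test of that difference; Mnt, Fasn and Slc16a3 passed it with limma-voom and DESeq2 but not with edgeR, and Ldha and G6pdx with DESeq2 alone of the 3. Klf10 was higher at 6 h than at 3 h by 0.88 on the log2 scale, at 627 and 631 against 347 and 336 CPM (adjusted p = 0.00608, edgeR; 2 of 2 libraries above both at 3 h). Srxn1 was lower at 6 h (log2 -1.01), at 12.3 and 12.1 against 24.7 and 24.5 CPM (adjusted p = 0.0208, edgeR; 2 of 2 below). Both calls were lost when any 1 of the 4 treated libraries was left out, with adjusted p-values up to 0.104 for Klf10 and 0.211 for Srxn1, while both differences kept their sign.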

How the results depend on the processing

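Signs were compared across the 15 alternatives only for the genes from Txnip to Txn1 described first and the list genes named by rule. No called value of these genes changed sign, and the signs of the other called genes were not compared. The number of genes called at 3 h was 625; it was 1437 with DESeq2, 1373 with library size as the only scaling, 1816 with no low-count filter, 218 in a fit of the 2 groups alone, and 108 to 1033 when 1 library was left out (lowest without 3 h replicate 1, highest without control replicate 1). At 6 h it was 3703, and 1312 to 3578 with 1 library left out (lowest without 6 h replicate 2). From 3 h to 6 h it was 209; it was 508 with limma-voom, 667 with DESeq2, 1063 with no filter, 563 in a fit of the 2 groups alone and 14 to 595 with 1 library left out. With a replicate block it was 126. Over all tested genes the deviations of same-numbered libraries had correlations of 0.09, -0.02 and 0.02. These values, which include the noise of low counts, cannot show whether such libraries shared a culture or batch. The labels do not say so either, and the block is given as a setting. Where a group is left with 1 library, that library is assumed to vary like the others. The cause of these shifts was not tested.

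Library size as the only scaling moved the median of all genes to 0.25 at 3 h, 0.40 at 6 h and 0.14 between the treated groups. The share of called genes that were higher went from 73.4% to 95.8% at 3 h, from 50.8% to 88.2% at 6 h and from 27.8% to 56.5% between them; it was 55.4% at 3 h with DESeq2. With it the signs turned for Slc2a1, Slc2a3, Hk1 and Hk2 at 3 h and for Mlxip, Mlx and Slc2a3 at 6 h, none of which had passed there. The filter and the floor leave Arrdc5, Hk3 and Hkdc1 undescribed at this depth.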

Other observations

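The pair of core sites found in the Txnip promoter occurs in the promoters of 26 genes in the RefSeq table; this set was formed after the motif search and is described without a test. Of these, 19 were in the files and 15 passed the filter, 14 of them other than Txnip. Of the 14, 0 passed at 3 h in edgeR's fit, where 4.9% of all genes did (3 at an unadjusted p under 0.05, 1 with DESeq2, 0 with limma-voom), and 2 passed at 6 h, where 29% did: Fem1b, at a mean of 118.6 CPM in control and 85 at 6 h (log2 -0.48 ± 0.13), and Irak1bp1, at 14.4 and 21.2 CPM (log2 0.55 ± 0.18); limma-voom and DESeq2 each called 1 at 6 h, lower, and 0 higher. Their median log2 fold change was 0.05 at 3 h and -0.15 at 6 h. Fnip1, which encodes a partner of folliculin, was named after its values were seen. Its mean levels were 18.2, 32.7 and 27.5 CPM in control, at 3 h and at 6 h. It did not pass at 3 h (log2 0.82 ± 0.27) or at 6 h (log2 0.57 ± 0.26). Pklr, the liver pyruvate kinase gene, holds the pair and did not pass the filter.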
